A study of Homo sapiens with 12 samples.

Results

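The genes examined here are 9 genes used to follow neuroendocrine and neuronal lineage traits in prostate cancer: SYT4, SYP, CHGA, NSG1, ENO2, UCHL1, ONECUT2, REST and SRRM4. They were taken by gene symbol from the 57992 entries of a gene count table, by a rule that uses no measured value, though with earlier results of these data known, and all 9 were found once each. The counts come from poly(A) RNA sequencing of human prostate adenocarcinoma cell lines that the labels describe as sensitive or resistant to enzalutamide, an antiandrogen drug. LNCaP, sensitive, is an androgen-responsive line from a lymph node metastasis. C4-2, also sensitive, is a castration-resistant subline of LNCaP, and MR49F, resistant, is a derivative of LNCaP selected under enzalutamide. Each line had 3 libraries, which the series calls biological replicates, so p-values measure only the spread between cultures of a line. All 3 lines share the LNCaP background, no drug treatment is given in the labels for any library, and resistance is represented by 1 line, so that resistance and other differences between lines cannot be told apart. C4-2R, the other resistant line, was not analysed here.

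Neuroendocrine prostate cancer cells store peptides and amines in dense-core vesicles and express genes that are otherwise read mainly in neurons. REST is a zinc-finger repressor that binds an element called RE1 near many neuronal genes and recruits co-repressor complexes, which keeps those genes off in non-neuronal cells. SRRM4 is a neural splicing factor that can switch REST transcripts to a truncated form, and ONECUT2 is a homeodomain transcription factor linked to neuroendocrine features of prostate cancer. Counts per gene, as used here, do not separate REST splice forms.

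Because REST acts through RE1, the sequence before the start of each gene was searched for it. The search took RefSeq windows on GRCh38.p14 that run from 250 bases before to 50 bases after each annotated start. The motif was TTCAGCACC, 3 free bases, then GACAGCGCC, on both strands, with up to 4 mismatches among the 18 fixed bases. None of the 9 genes had a match (0 of 9). A match was found in 246 of 35116 windows (0.701%), which is 233 of 27305 gene symbols (0.853%). Among a list of REST target genes used below, 4 of 23 with a window had one (17.4%). The 23 include SYT4, SYP, CHGA and SRRM4, which are also among the 9 genes and are left out of the target counts below. The 4 matching sites and the closest stretches in SYT4 and SYP are shown to let the difference be seen. Each is written 5′ to 3′ on the matching strand, and capitals mark bases equal to the fixed bases of the motif.
GRIA2, chr4:157220388-157220408: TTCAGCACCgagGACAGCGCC
SYN1, chrX:47620070-47620090: TTCAGCACCgcgGACAGtGCC
VGF, chr7:101165559-101165579: TTCAGCACgctgGACAGCGCC
CELSR3, chr3:48663014-48663034: TTCAGCACCaggagCAaCGCt
SYP, chrX:49200277-49200297: TgCAGCcCCgcccctcGCGCC
SYT4, chr18:43277564-43277584: aTCAGCACCtgcccCcctcCC
The SYP stretch had 6 mismatches and the SYT4 stretch had 7, and the closest stretch in the 9 genes had 6 to 8. A match is a run of letters and not a binding site, and RE1 elements in introns or farther away lie outside these windows. The search also misses elements whose gap is wider than 3 bases. The UNC13A window holds TTCAGCACC and GACAGCGCC in full at a wider gap, yet counted as no match, with 5 mismatches. The SCG3 window, with 7 mismatches, holds TTCAGCACC and GACAGCGCT in the same way. Wider gaps were not searched for in any window, so 0 of 9 and 4 of 23 hold for the 3-base gap only.

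SYT4 stood apart from the other 8 genes in base composition. Its window had a GC content of 53.3% and 11 CpG dinucleotides, below the median over all windows (58.7% and 14). Both values lay between the lower and upper quartiles of all windows, 47.0% to 68.0% and 4 to 28. The windows of the other 8 genes had 63.0% to 79.3% GC and 24 to 46 CpG dinucleotides. The RefSeq start of SYT4 lies inside the gene as GENCODE 29 draws it, so only the 90 bases before the GENCODE boundary are shown, on the minus strand of GRCh38.p14, because SYT4 is the gene that differed most between the lines.
SYT4, chr18:43277651-43277740: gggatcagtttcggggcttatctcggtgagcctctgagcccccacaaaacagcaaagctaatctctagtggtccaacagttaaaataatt

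Library depth was 6990461 to 9375912 counts, apart from C4-2 replicate 1 with 42770072. Levels are given as CPM, counts scaled to a common library size, and levels of different genes are compared only per length, as RPKM. All 10 prostate luminal markers, such as KLK3, KLK2 and KRT8, had at least 1 CPM in every line, with summed levels of 5890 to 6070 CPM in LNCaP, 9030 to 9300 in MR49F and 7230 to 8290 in C4-2. Of 8 neuroendocrine markers only SYP had at least 1 CPM, in each of the 3 lines, and the summed level of the 8 was 2.27 to 3.17 CPM in LNCaP, 5.53 to 6.41 in MR49F and 2.66 to 4.80 in C4-2. The label of the lines as prostate adenocarcinoma thus matched luminal markers, and the name neuroendocrine lineage describes the 9 genes and not the cells. Summed immune markers reached at most 0.572 CPM in any library. The summed level of 5 basal markers was 19.4 to 21.2 CPM in LNCaP, 20.7 to 22.7 in MR49F and 36.9 to 49.5 in C4-2. Most of this was DST, which averaged 19.3, 21.2 and 42.6 CPM in LNCaP, MR49F and C4-2. The basal keratin KRT14 averaged 1.10, 0.534 and 1.16 CPM in the same order, and KRT5, another, had no count. Summed fibroblast markers were 26.2 to 30.1 CPM in LNCaP, 7.61 to 9.26 in MR49F and 21.8 to 27.0 in C4-2, and summed endothelial markers stayed at or under 4.82 CPM. Their part in the results was not tested. In these bulk samples, fewer cells that express a gene and less RNA per cell cannot be told apart.

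The 9 genes spanned from no count to 831 RPKM. SYT4 was the highest of them in every line, at 143 ± 4.81 RPKM in LNCaP, 831 ± 28.9 in MR49F and 177 ± 10.6 in C4-2 (SD, n = 3 each). It made up 86.3%, 97.1% and 91.6% of the summed RPKM of the 9 genes in LNCaP, MR49F and C4-2. REST came second in every line, at 13.4 ± 0.482, 14.1 ± 1.86 and 11.1 ± 2.07 RPKM. In LNCaP and MR49F, ENO2 came next (6.89 ± 0.452 and 6 ± 0.488 RPKM) and then ONECUT2 (1.44 ± 0.171 and 2.46 ± 0.149 RPKM). In C4-2 this order turned, with ONECUT2 at 2.46 ± 0.580 and ENO2 at 1.75 ± 0.307 RPKM, values that overlapped within their SD. SYP, NSG1 and UCHL1 stayed under 1 RPKM in every line. In LNCaP, NSG1 (0.224 ± 0.0543 RPKM) and UCHL1 (0.219 ± 0.117) lay within their spread, and in MR49F, SYP (0.950 ± 0.133) and NSG1 (0.748 ± 0.287) did.

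CHGA and SRRM4 were silent or close to it. A gene was called silent in a line where its counts over the 3 libraries came to 3 or less, which is 0.118 CPM in LNCaP, 0.0531 in C4-2 and 0.114 in MR49F. CHGA was silent in LNCaP and C4-2, and SRRM4 in LNCaP and MR49F. SRRM4 was barely detected in C4-2, with 5 counts and a mean of 0.0742 CPM. This does not place C4-2 above LNCaP, whose libraries had 0.214, 0.114 and 0 CPM of SRRM4. The rule uses pooled counts, and C4-2 was read more deeply. UCHL1, at 0.308 to 0.499 CPM on average, was detected in all 9 libraries but had too few counts to test. The filter on low counts was therefore passed by 6 of the 9 genes.

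**Figure D1:**
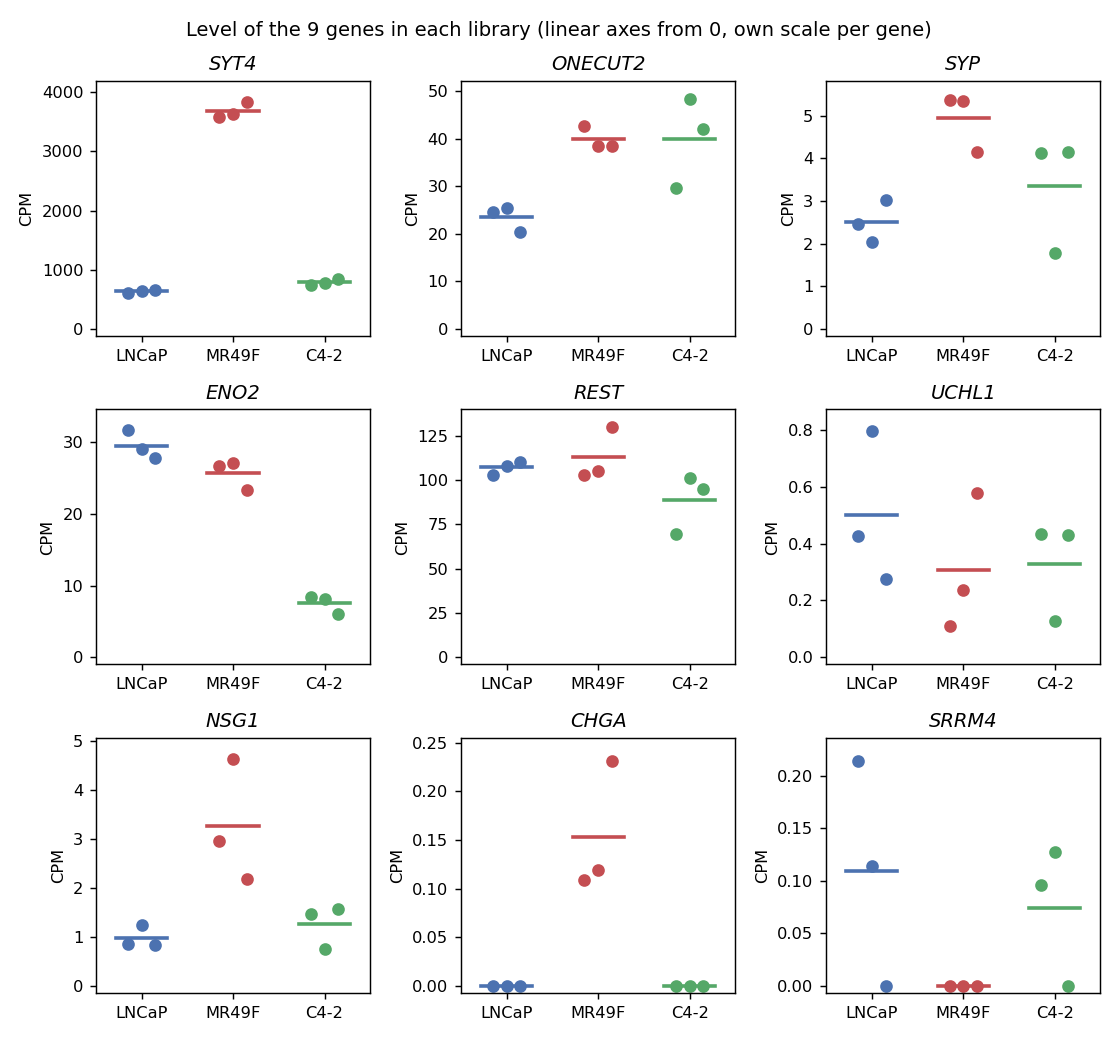
CPM of the 9 genes in each of the 9 libraries, on linear axes from 0 with a scale of its own for each gene. Points are single libraries and horizontal bars are the means of the 3 libraries of a line. The mean of SYT4 was 636 CPM for LNCaP, 787 for C4-2 and 3690 for MR49F, while CHGA had counts in MR49F alone.

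SYT4 encodes synaptotagmin 4, a vesicle membrane protein of the synaptotagmin family that acts in vesicle trafficking and dense-core vesicle release. The gene (ENSG00000132872) lies on the minus strand of chromosome 18, 43267878 to 43277650 (GRCh38). Its level was 613, 638 and 656 CPM in the LNCaP libraries, 3590, 3640 and 3830 CPM in MR49F, and 746, 775 and 838 CPM in C4-2. The 3 lines did not overlap, and the MR49F libraries stood far above both sensitive lines. SYT4 was 5.80-fold higher in MR49F than in LNCaP (log2 fold change 2.54, SE 0.0769, edgeR adjusted p = 2.27e-16). Against C4-2 the log2 fold change was 2.23 (SE 0.0759, edgeR adjusted p = 1.04e-15). C4-2 was also above LNCaP, by far less (log2 fold change 0.31, SE 0.0732, edgeR adjusted p = 0.00161). By mean RPKM, SYT4 ranked 27 among the 25225 entries with a count in MR49F, 194 in LNCaP and 140 in C4-2. It held 0.350% to 0.373% of all counts of an MR49F library, against 0.0639% to 0.0680% in LNCaP and 0.0726% to 0.0820% in C4-2.

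SYP encodes synaptophysin, a synaptic vesicle membrane protein that pathologists stain for in neuroendocrine tumours. The gene (ENSG00000102003) lies on the X chromosome, 49187804 to 49200259, minus strand, and 68 of its exon bases are shared with the antisense gene SYP-AS1. Since the strand setting of the counting is not known, reads there cannot be assigned with certainty. SYP was measured at 2.46, 2.05 and 3.03 CPM in LNCaP, 5.36, 5.34 and 4.15 CPM in MR49F, and 4.13, 1.77 and 4.15 CPM in C4-2. Every MR49F library was above every LNCaP library, while the C4-2 libraries were split, with replicate 2 below the LNCaP range and the others above it. SYP rose in MR49F against LNCaP (log2 fold change 0.99, SE 0.275, edgeR adjusted p = 0.00548), from a mean of 2.51 to one of 4.95 CPM. The log2 fold change of C4-2 against LNCaP was 0.53 (SE 0.269, edgeR adjusted p = 0.108) and passed without C4-2 replicate 2 (0.74, adjusted p = 0.00801). That of MR49F against C4-2 was 0.46 (SE 0.235, edgeR adjusted p = 0.0965) and passed without C4-2 replicate 1 (0.77, adjusted p = 0.0172).

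NSG1 encodes neuronal vesicle trafficking associated 1, an endosomal protein of neurons. The gene (ENSG00000168824) lies on chromosome 4, 4348140 to 4419058, plus strand, with 91 exon bases shared with STX18 on the opposite strand. It had 8, 11 and 6 counts in LNCaP (0.854, 1.25 and 0.827 CPM), 27, 39 and 19 in MR49F (2.95, 4.63 and 2.19 CPM), and 61, 6 and 11 in C4-2 (1.47, 0.759 and 1.57 CPM). MR49F was above both sensitive lines in every library, and those lines overlapped. NSG1 rose in MR49F against LNCaP (log2 fold change 1.71, SE 0.357, edgeR adjusted p = 0.000512) and was higher than in C4-2 (1.26, SE 0.297, edgeR adjusted p = 0.00101). C4-2 against LNCaP gave 0.45 (SE 0.384, edgeR adjusted p = 0.346).

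CHGA encodes chromogranin A, a main soluble protein of dense-core vesicles and a serum marker of neuroendocrine tumours. The gene (ENSG00000100604) lies on chromosome 14, 92923080 to 92935293, plus strand. It had 1, 1 and 2 counts in the MR49F libraries (0.109, 0.119 and 0.231 CPM) and none in the 6 libraries of LNCaP and C4-2. For these 4 pooled counts against none, the lower 95% limit of the ratio (exact binomial) was 0.64 against LNCaP and 1.42 against C4-2. Without a count filter, the fit gave an edgeR adjusted p of 0.139 against LNCaP and 0.0286 against C4-2, a contrast of 4 counts with none. At this depth CHGA was thus close to its detection limit in MR49F.

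ENO2 encodes gamma enolase, a glycolytic enzyme known as neuron-specific enolase. The gene (ENSG00000111674) lies on chromosome 12, 6913745 to 6923698, plus strand. Its level was 31.6, 29 and 27.8 CPM in LNCaP, 26.7, 27.1 and 23.3 CPM in MR49F, and 8.43, 8.10 and 6.01 CPM in C4-2. C4-2 stood well below both other lines, whereas the MR49F libraries lay just under the LNCaP libraries without overlap. ENO2 fell in C4-2 against LNCaP (log2 fold change -1.92, SE 0.128, edgeR adjusted p = 1.06e-10), and MR49F was higher than C4-2 (1.72, SE 0.129, edgeR adjusted p = 4.02e-10). MR49F against LNCaP gave -0.20 (SE 0.117, edgeR adjusted p = 0.167). The ubiquitous paralog ENO1, at 268 ± 7.83 RPKM in LNCaP, and the muscle paralog ENO3, at 5.34 ± 0.531 RPKM, did not pass in any of the 3 comparisons (log2 fold changes of -0.19 to 0.18).

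UCHL1 encodes a ubiquitin hydrolase that is abundant in neurons. The gene (ENSG00000154277) lies on chromosome 4, 41256413 to 41268455, plus strand, and shares 135 exon bases with UCHL1-AS1. It had 4, 7 and 2 counts in LNCaP, 1, 2 and 5 in MR49F, and 18, 1 and 3 in C4-2, which is 0.109 to 0.795 CPM over all libraries. The lines overlapped. The ratio of pooled counts per library size was 0.596 for MR49F to LNCaP (95% exact binomial interval 0.214 to 1.55) and 0.761 for C4-2 to LNCaP (0.367 to 1.64), so that no difference in UCHL1 was detectable at this depth. Its paralogs were far higher, with UCHL3 at 12.7 ± 0.777, UCHL5 at 13.1 ± 0.106 and BAP1 at 17.7 ± 0.751 RPKM in LNCaP. Of these, UCHL3 fell in MR49F against LNCaP (log2 fold change -0.37, edgeR adjusted p = 0.0398), and no other contrast of the 3 paralogs passed.

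ONECUT2 (ENSG00000119547) lies on chromosome 18, 57435685 to 57491297, plus strand. Its level was 24.6, 25.4 and 20.3 CPM in LNCaP, 42.7, 38.5 and 38.5 CPM in MR49F, and 29.7, 48.2 and 41.9 CPM in C4-2. Both derived lines were above LNCaP in every library, and C4-2 spread around the narrower range of MR49F. ONECUT2 rose in MR49F (log2 fold change 0.76, SE 0.147, edgeR adjusted p = 0.000242) and in C4-2 (0.72, SE 0.145, edgeR adjusted p = 0.000355) against the same LNCaP libraries. Between MR49F and C4-2, with equal means of 39.9 CPM, the log2 fold change was 0.04 (SE 0.138, edgeR adjusted p = 0.814). It was -0.18 without C4-2 replicate 1, the deep library, and -0.01 without MR49F replicate 1. The family member ONECUT3 had no count in any library, and ONECUT1 had too few counts to test. The related homeobox gene CUX1 fell in MR49F against LNCaP (-0.42, edgeR adjusted p = 0.00093).

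REST (ENSG00000084093) lies on chromosome 4, 56907876 to 56966678, plus strand, with 23 exon bases shared with NOA1 on the opposite strand. Its level was 103, 108 and 110 CPM in LNCaP, 103, 105 and 130 CPM in MR49F, and 69.5, 101 and 94.7 CPM in C4-2. The LNCaP and MR49F libraries overlapped, and all C4-2 libraries lay below both. MR49F against LNCaP gave 0.07 on the log2 scale (SE 0.116, edgeR adjusted p = 0.641), which turned to -0.05 without MR49F replicate 3. REST fell in C4-2 against LNCaP (-0.30, SE 0.117, edgeR adjusted p = 0.0413) and was higher in MR49F than in C4-2 (0.37, SE 0.117, edgeR adjusted p = 0.00977). The first call was lost without C4-2 replicate 1, whose level was the lowest (-0.13, adjusted p = 0.22), without any one LNCaP library (-0.33 to -0.28, adjusted p 0.051 to 0.0957), with DESeq2 and with only the 6 libraries compared. The other was lost without MR49F replicate 3 (0.26, adjusted p = 0.0803).

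SRRM4 (ENSG00000139767) lies on chromosome 12, 118981495 to 119163051, plus strand, with 25 exon bases shared with an antisense gene. It had 2, 1 and 0 counts in LNCaP, none in MR49F, and 4, 1 and 0 in C4-2. No difference in SRRM4 was detectable at this depth, and the ratio of C4-2 to LNCaP was 0.749 (95% exact binomial interval 0.146 to 4.83). Its paralog SRRM3, which shares the neural splicing activity, averaged 0.193 CPM in LNCaP, 2.48 in C4-2 and 0.157 in MR49F. SRRM3 rose in C4-2 against LNCaP (log2 fold change 3.60, SE 0.476, edgeR adjusted p = 2.64e-06). In MR49F against LNCaP it gave -0.34 (adjusted p = 0.788).

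Counted over the 6 tested genes, MR49F against LNCaP had 4 higher (SYT4, ONECUT2, SYP and NSG1), 0 lower and 2 that did not pass (ENO2 and REST), with a median log2 fold change of 0.88, against 0.01 over all 15407 tested genes. Of all tested genes, 24.1% were higher and 22.8% lower by the same edgeR rule. The 2 lines were free of overlap in 4 of the 6 genes in the higher direction and 1 in the lower (ENO2), where 30.7% and 29.1% of all tested genes were. UCHL1, CHGA and SRRM4 are not in these counts. NSG1 is in them with a mean of 0.977 CPM in LNCaP and 3.26 in MR49F, and the filter keeps a gene that is high in only 1 line.

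In C4-2 against LNCaP the same 6 genes had 2 higher (SYT4 and ONECUT2), 2 lower (ENO2 and REST) and 2 that did not pass (SYP and NSG1), with a median of 0.38, against 0 over all tested genes. Of all tested genes, 26.2% were higher and 23.5% lower, and the 6 genes had no common direction. Without overlap were 2 genes in the higher direction and 2 in the lower, where 28.9% and 26.8% of all tested genes were. This comparison and that of MR49F share the LNCaP libraries, and their values are only set side by side.

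MR49F against C4-2 had 4 higher (SYT4, ENO2, REST and NSG1) and 0 lower, with ONECUT2 and SYP not passing, and a median of 0.86, against 0 over all tested genes. The background was 29.9% higher and 31.1% lower. Libraries did not overlap for 5 genes in the higher direction and for 0 in the lower, where 30.6% and 31.3% of all tested genes did so. SYP was among the 5 only by a margin below the printed digits. It had 4.15 CPM both in MR49F replicate 3 and in C4-2 replicate 3. Of the 9 genes, SYT4 and NSG1 were the ones called higher in MR49F against both sensitive lines.

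**Figure D2:**
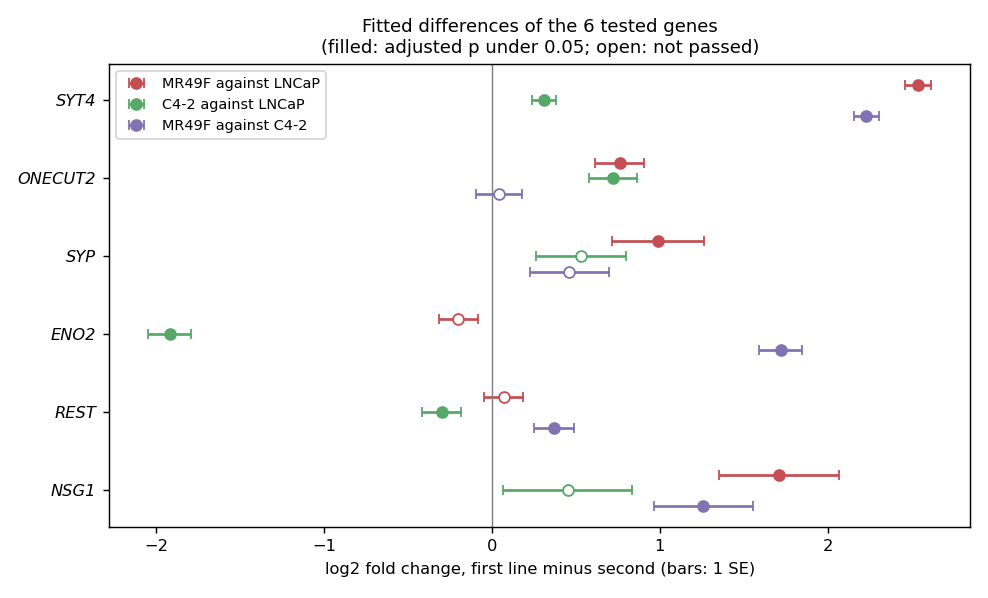
Log2 fold change of the 6 tested genes in the 3 comparisons between lines, with error bars of 1 SE, where filled points passed an edgeR adjusted p of 0.05 and open points did not. SYT4 lies at 2.54 and 2.23 in the comparisons of MR49F with LNCaP and C4-2, and ENO2 lies at -1.92 in C4-2 against LNCaP.

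The place of a gene on its chromosome went along with some of these differences. On the X chromosome, which carries SYP, 354 of 553 other tested genes rose in MR49F against LNCaP (64.0%) and 42 fell, with a median log2 fold change of 0.54. Within 1 Mb of SYP, 30 of 37 tested genes rose and 2 fell, with a median of 0.78, beside the 0.99 of SYP itself. In MR49F against C4-2, 69.8% of the other tested X genes were higher (median 0.63). Of the 37 near SYP, 27 were higher and 2 lower there (median 0.66), beside 0.46 for SYP. On chromosome 4, which carries REST, UCHL1 and NSG1, 260 of 544 other tested genes fell in C4-2 against LNCaP (47.8%) and 87 rose, with a median of -0.27, beside the -0.30 of REST. Within 1 Mb of REST 8 of 12 tested genes fell (median -0.70), and within 1 Mb of NSG1 7 of 9 fell (median -0.46) while NSG1 gave 0.45. In MR49F against C4-2, 50.7% of the tested genes of chromosome 4 were higher, with a median of 0.29 beside the 0.37 of REST and the 1.26 of NSG1. Within 1 Mb of NSG1, 8 of 9 were higher and 0 lower there (median 0.64), and within 1 Mb of REST 8 of 12 were higher and 0 lower (median 0.66). The part of such regional shifts in the SYT4, SYP, REST, NSG1, ONECUT2 and ENO2 values was not tested. SYT4 had no tested gene within 1 Mb, so a shift close to it could not be looked for. Chromosome 18 had medians of -0.08 in MR49F against LNCaP, -0.05 in C4-2 against LNCaP and 0.04 in MR49F against C4-2. SYT4 itself gave 2.54, 0.31 and 2.23 in the same order. Near ONECUT2, 3 of 9 tested genes rose and 2 fell in MR49F against LNCaP (median -0.04), beside 0.76 for ONECUT2. In C4-2 against LNCaP 5 rose and 0 fell (median 0.27), beside 0.72. For MR49F against C4-2, 0 were higher and 4 lower (median -0.43), beside 0.04. Within 1 Mb of ENO2, 11 of 46 tested genes rose and 11 fell in C4-2 against LNCaP (median -0.10), beside -1.92 for ENO2.

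SYT4 was not the only synaptotagmin gene that was higher in MR49F. Of its 16 listed paralogs, 5 had enough counts to test, and 4 of those rose in MR49F against LNCaP. The count filter keeps a gene that is high in only 1 line. These 4 were under 1 CPM in LNCaP, so the filter favoured a rise among them and their number is only a description. SYT17 was at 0.320, 0.454 and 0.276 CPM in LNCaP, 22.9, 23.2 and 20.5 CPM in MR49F, and 3.53, 3.42 and 4.01 CPM in C4-2. The 3 lines did not overlap for SYT17, in the same order as for SYT4, and the log2 fold change of MR49F against LNCaP was 5.93 (SE 0.236, edgeR adjusted p = 2.18e-14). SYT14 had no count in LNCaP, 22, 33 and 39 in MR49F and 14, 0 and 3 in C4-2, so that it was at least 30.4-fold higher in MR49F than in LNCaP. SYT3 (3.37) and SYT9 (3.22) rose from means of 0.203 and 0.237 CPM. SYT7, which encodes a calcium sensor of slow vesicle release, instead averaged 8.89 ± 0.567 RPKM in LNCaP, 9.75 ± 0.245 in MR49F and 19.3 ± 0.981 in C4-2. SYT7 rose in C4-2 against LNCaP (1.12, edgeR adjusted p = 6.24e-10) and did not pass in MR49F (0.13, adjusted p = 0.212). Per length, SYT4 in MR49F (831 RPKM) was far above the next synaptotagmins there, SYT7 and SYT17 (2.94 ± 0.192 RPKM).

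**Figure D3:**
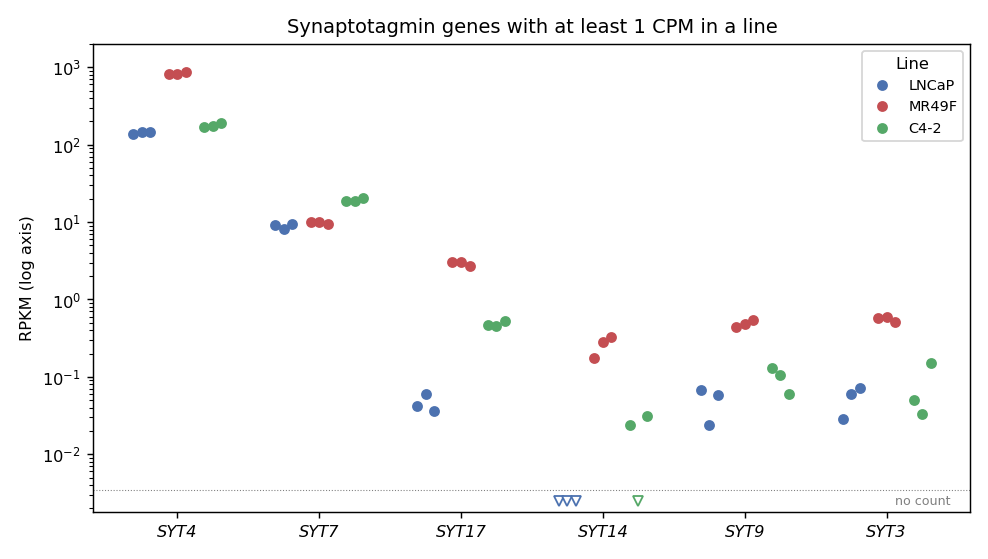
RPKM on a log axis of the 6 synaptotagmin genes with at least 1 CPM in a line, in each library, with colours for the lines and open triangles for libraries with no count. SYT4 lies between 143 and 831 RPKM by line mean, and SYT17 rises from 0.0465 RPKM in LNCaP to 2.94 in MR49F.

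Of the tested relatives of SYP, none passed in MR49F against LNCaP. SYPL1, a widely expressed synaptophysin-like gene, was at 74.5 ± 5.26 RPKM in LNCaP and 75.1 ± 4.66 in MR49F (log2 fold change 0.01, edgeR adjusted p = 0.925), and rose in C4-2 (0.74, adjusted p = 1.16e-07). SYNGR3, a synaptogyrin of synaptic vesicles, gave 0.01 in MR49F against LNCaP and rose in C4-2 (1.76, edgeR adjusted p = 1.62e-05). SYNGR1 and SYNGR2 each gave 0.24 in MR49F against LNCaP (edgeR adjusted p = 0.146 and 0.0708). NSG2, the relative of NSG1, had too few counts to test. Over all 41 listed family members of the 9 genes, 19 were tested, of which 4 rose and 3 fell in MR49F against LNCaP. Against LNCaP, C4-2 had 8 higher and 2 lower, and in MR49F against C4-2 5 were higher and 6 lower. The 4 that rose in MR49F were the synaptotagmins above. The medians were 0.01, 0.24 and -0.04.

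Genes that work with SYT4 and SYP in vesicle release showed a mixed pattern. Of 22 synaptic vesicle genes, 13 were tested, and 7 rose and 3 fell in MR49F against LNCaP (median log2 fold change 0.53). The shares that rose and fell among all tested genes, 24.1% and 22.8% in this contrast, 26.2% and 23.5% in C4-2 against LNCaP and 29.9% and 31.1% in MR49F against C4-2, are the background of every list count given here. They do not correct for the count filter, which keeps a gene that is high in only 1 line, as with SYN2. SYN2, which encodes a synapsin that tethers vesicles, had 0, 2 and 0 counts in LNCaP and 82, 82 and 83 in MR49F, a pooled ratio of 120 (95% exact binomial interval 32.8 to 994). The release factor gene UNC13A also rose (log2 fold change 2.93, edgeR adjusted p = 1.75e-07). RIMS1, an active zone scaffold, fell from a mean of 48.6 to 4.84 CPM (-3.32, edgeR adjusted p = 5.05e-14). In C4-2 against LNCaP, 4 rose and 6 fell (median -0.05), with RIMS1 (-2.98) and CADPS2 (-2.06), a priming factor of dense-core vesicles, among the lower ones. MR49F against C4-2 had 8 higher and 2 lower (median 0.69). SYT1, SNAP25 and SYN1, main parts of the neuronal release machinery, had too few counts to test, and SYN1 had none at all.

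Of 26 other neuroendocrine markers, 12 were silent in every line like CHGA in LNCaP and C4-2, 6 of those had no count, and 9 were tested. CPE, which encodes a peptide-processing carboxypeptidase, averaged 107 CPM in LNCaP, 97.7 in C4-2 and 108 in MR49F and did not pass in any comparison. In MR49F against LNCaP, 4 rose and 1 fell (median 0.57). BEX1, a neuronal adaptor gene, was at 0.961, 0.909 and 1.10 CPM in LNCaP, 23.6, 23.9 and 24 CPM in MR49F, and 1.54, 0.886 and 0.859 CPM in C4-2. BEX1 rose in MR49F against LNCaP (log2 fold change 4.58, SE 0.209, edgeR adjusted p = 2.13e-13) and gave 0.41 in C4-2 against LNCaP (adjusted p = 0.280). DDC, which encodes the enzyme that makes dopamine and serotonin, rose in MR49F (0.85, edgeR adjusted p = 3.86e-07) and fell in C4-2 (-0.49, adjusted p = 0.000397). NEFL, a neurofilament gene, fell in both lines (-1.93 and -2.86). The C4-2 comparison with LNCaP had 4 higher and 2 lower (median 0.41), and the granule protein gene VGF had 162 pooled counts against 2 in LNCaP, a ratio of 36.4 (95% exact binomial interval 9.92 to 303). MR49F against C4-2 had 4 higher and 3 lower (median 0.16). The granin gene CHGB had 3 counts in all, and these were in MR49F.

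Transcription factors of neuroendocrine differentiation ranged from silence to levels above that of ONECUT2. HES6, a HES family factor that promotes neuronal differentiation, was at 5.38 RPKM in LNCaP, 4.91 in MR49F and 13.7 in C4-2 on average. Of 21 listed, 7 were silent in every line, and INSM1, MYCN, POU3F4 and ONECUT3 had no count at all. NEUROD1 had 3 counts, all in C4-2. Of 6 tested, 1 rose and 1 fell in MR49F against LNCaP (median -0.20). POU4F1, a sensory neuron factor, was the one that rose, from a mean of 0.274 to 6.31 CPM (log2 fold change 4.46, edgeR adjusted p = 6.44e-09), and LHX2 fell (-1.35, adjusted p = 0.00367). The C4-2 contrast with LNCaP had 4 higher and 1 lower (median 1.13), with POU4F1 (2.78) and HES6 (1.39) higher and MYT1 lower (-2.60). MR49F against C4-2 had 2 higher and 3 lower (median -0.97).

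REST targets were examined beside REST itself. Of 26 listed targets, the 9 genes not counted, 8 were silent in every line and 5 of those had no count, among them SYN1 and GRIA2, which carry the RE1 matches shown above. In MR49F against LNCaP, where REST gave 0.07, 6 of 10 tested targets rose and 1 fell (median 1.47), where 24.1% of all tested genes rose and 22.8% fell. The 6 were BEX1 (4.58), UNC13A (2.93), RUNDC3A (1.63), the potassium channel gene KCNH2 (1.61), the adhesion receptor gene CELSR3 (1.33) and STX1A (0.53). MAPK8IP2, a scaffold gene of neuronal kinase signalling, fell (-1.17, edgeR adjusted p = 3.56e-06). In C4-2 against LNCaP, REST gave -0.30, a call lost under 6 of 17 alternatives. There, 6 of 10 targets rose and 0 fell (median 1.02), beside 26.2% and 23.5% of all tested genes. VGF and SRRM3 led, and MAPK8IP2 was higher (1.10). The count filter keeps a gene that is high in only 1 line. VGF, SRRM3, BEX1, UNC13A and RUNDC3A averaged under 1 CPM in LNCaP, so these target counts and medians lean toward rises. The shares over all tested genes do not correct for that. In MR49F against C4-2, 5 were higher and 5 lower (median -0.19), where REST gave 0.37, a call lost without MR49F replicate 3. SYP and SYT4 are also REST targets by this list, and their values stand above.

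The partners of REST were expressed throughout, and all 19 listed co-repressors and turnover factors were tested. In MR49F against LNCaP 5 rose and 6 fell (median 0.05). RCOR2, a co-repressor of the CoREST family found in neural progenitors, rose from 0.641, 0.568 and 0.689 CPM in LNCaP to 4.27, 6.53 and 5.53 CPM in MR49F (log2 fold change 3.09, SE 0.317, edgeR adjusted p = 8.40e-08). The C4-2 libraries had 0.312, 0.127 and 0.429 CPM of RCOR2, the lowest of the 3 lines. The main CoREST gene RCOR1 gave -0.02 in MR49F (adjusted p = 0.874). In C4-2 against LNCaP 2 rose and 12 fell (median -0.29), among them the phosphatase genes CTDSP2 (-0.49) and CTDSPL (-0.55), BTRC (-0.67), whose product marks REST for degradation, and USP7 (-0.39), whose product stabilises REST. HDAC1 was among the 2 that rose, and 1 rose when only the 6 libraries compared were fitted. MR49F against C4-2 had 10 higher and 1 lower (median 0.19), and 6 and 0 with only those 6 libraries.

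**Figure D4:**
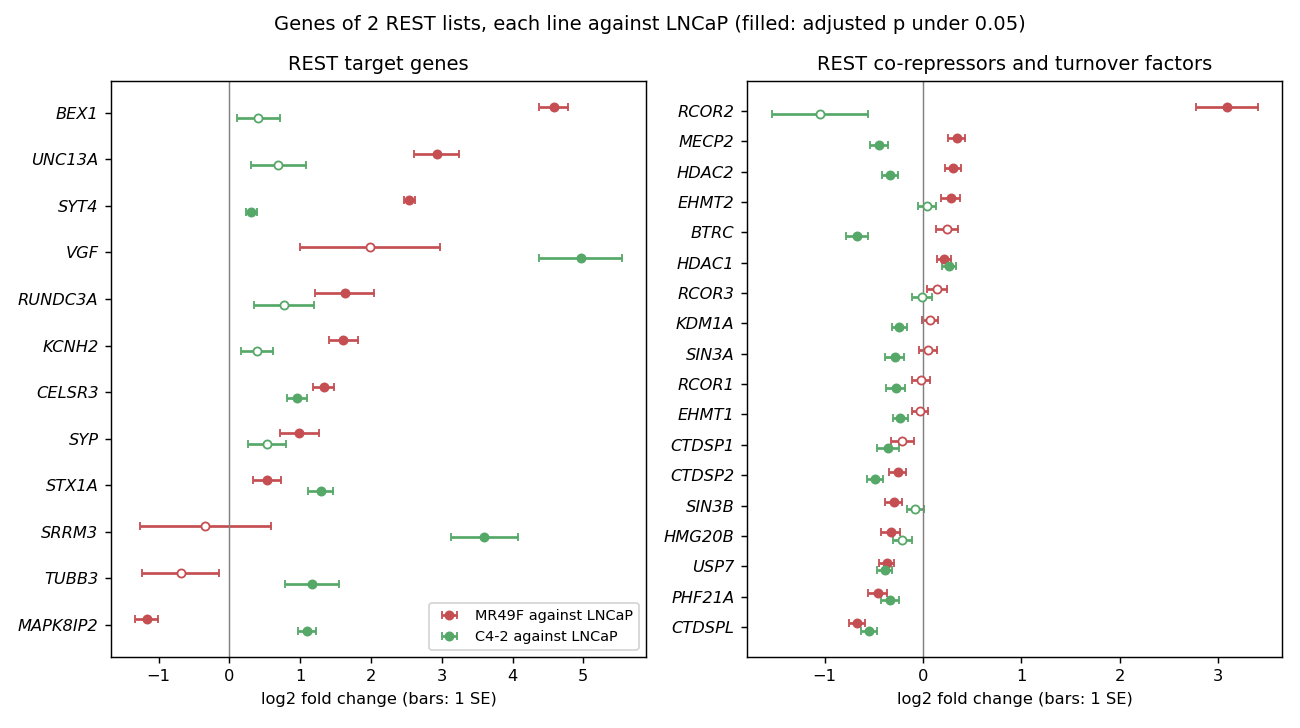
Log2 fold change of the tested genes of the REST target list, with SYT4 and SYP included, and of the REST co-repressor and turnover list, with 1 gene of the latter not drawn, for MR49F and C4-2 each against the same LNCaP libraries, with error bars of 1 SE and filled points where the edgeR adjusted p was under 0.05. BEX1 at 4.58 and RCOR2 at 3.09 are the highest points of MR49F in their panels.

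Among neural splicing regulators, which include the paralogs of SRRM4, 13 of 21 were tested and 4 rose and 5 fell in MR49F against LNCaP (median -0.04). PTBP2, the neuronal polypyrimidine tract binding gene, rose from 30.1 to 75.6 CPM (log2 fold change 1.33, edgeR adjusted p = 2.18e-10), while its widely expressed paralog PTBP1 fell (-0.47, adjusted p = 1.55e-05). ELAVL2 and NOVA1, neuronal RNA-binding protein genes, rose in MR49F (2.13 and 1.46) and in C4-2 (1.88 and 1.51). C4-2 against LNCaP had 6 higher and 4 lower (median 0.01), and MR49F against C4-2 had 3 higher and 5 lower (median -0.04).

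Of 21 regulators tied to lineage plasticity, 20 were tested, and 5 rose and 7 fell in MR49F against LNCaP (median -0.11). PEG10, a retrotransposon-derived gene linked to neuroendocrine prostate cancer, was at 2.78, 2.5 and 2.21 CPM in LNCaP, 127, 132 and 142 CPM in MR49F and 3.1, 3.8 and 3.58 CPM in C4-2. It rose in MR49F (log2 fold change 5.72, SE 0.131, edgeR adjusted p = 2.59e-18) and gave 0.40 in C4-2 (adjusted p = 0.112). EZH2, a histone methyltransferase gene, gave -0.08 in MR49F and rose in C4-2 (0.74). SOX9 had 199 pooled counts in LNCaP and 2 in MR49F, a ratio of 103 (95% exact binomial interval 28.1 to 854). C4-2 against LNCaP had 7 higher and 4 lower (median 0.20). MR49F against C4-2 had 7 higher and 9 lower (median -0.17), and the higher count was 3 with only the 6 libraries compared.

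**Figure D5:**
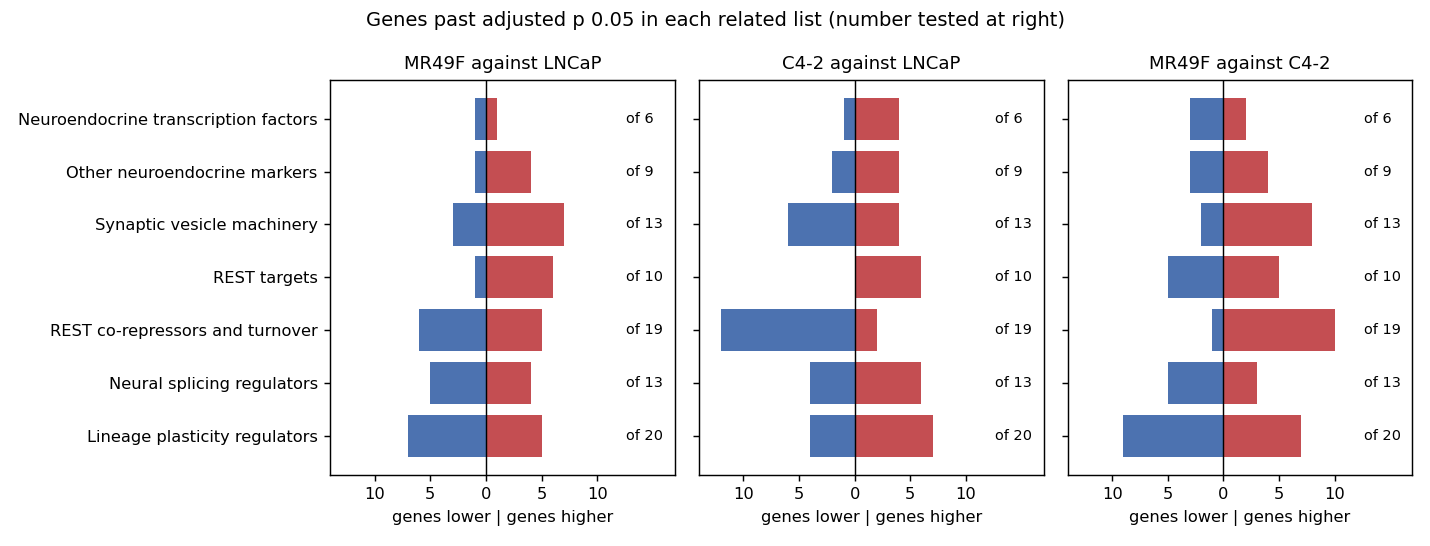
Number of genes past an edgeR adjusted p of 0.05 in each related list, lower to the left and higher to the right, in the 3 comparisons, with the number tested at the right of each row. REST targets had 6 of 10 higher against LNCaP in MR49F and in C4-2, and REST co-repressors and turnover factors had 12 of 19 lower in C4-2.

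Genes whose levels followed those of SYT4, ONECUT2, SYP and REST most closely were sought among 12177 protein-coding genes by Pearson's r of log2 CPM over the 9 libraries. These r values are a description, since libraries of a line share the line and any gene that separates the lines alike gives a high r. For SYT4 they were ZNF516 (r = 0.9982), RGS17 (0.9977) and PEG10 (0.9976). ZNF516, a zinc-finger gene also on chromosome 18, had no count in LNCaP and averaged 3.73 CPM in MR49F and 0.106 in C4-2. For ONECUT2 they included LPIN1 (0.9914) and PTPDC1 (0.9654). For SYP they were RUNDC3A (0.9706), DPM3 (0.9576) and ZDHHC24 (0.9557). For REST they were VIRMA (0.9855), RC3H2 (0.9822) and HOOK1 (0.9820), which lie on chromosomes 8, 9 and 1.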

How the data were processed

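Poly(A) RNA libraries were made with a TruSeq stranded kit and read from both ends on a HiSeq2500, per the labels. The authors deposited raw counts for each Ensembl gene. TopHat2, HTSeq 0.6.1, FastQC 0.11.3, edgeR 3.12.1 and GRCh38.p12 stand in the submitters' processing notes without roles. The strand setting, annotation release and any filter were not given in the sources used here. Of 12 columns of counts, 9 match the LNCaP, MR49F and C4-2 titles; 3 carry a name that matches no title and were not used, so the planned comparison of C4-2R with C4-2 was not made.

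The 9 genes and all lists were chosen with earlier results of these data known. Counts were tested with the quasi-likelihood test of edgeR 4.0.16 (R 4.3.3; robust fit, TMM scaling, filterByExpr by line, 1 mean per line, 6 residual degrees of freedom, 15407 genes, common biological coefficient of variation 0.0817), and p adjusted by Benjamini-Hochberg over these genes passed under 0.05. Every adjusted p is from this fit unless another is named. The SE is the size of the log2 fold change over the square root of F. CPM use TMM-scaled library sizes, and RPKM divide them by the merged exon length in GENCODE 29. Symbols come from a table of gene names (56948 IDs matched), coordinates from GENCODE 29 (57388 matched) and promoter windows from RefSeq. Intervals and the floor of 3 counts reflect counting error alone, as the reads carry no molecular identifiers. No replicate pair differed as little as counting noise, for which the chi-square per degree of freedom is about 1. It was 1.49 to 1.8 for the LNCaP pairs, 2.07 to 5.56 for MR49F and 5.84 to 24 for C4-2. The fit shares 1 estimate of spread over these lines. The test was tested on simulated data.

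Named beside the 9 genes were family members with at least 1 CPM in a line and, per list and comparison, up to 4 called genes of lowest adjusted p plus the uncalled gene of highest CPM. Genes named outside this rule (untested genes, KCNH2, RUNDC3A, RCOR1, and a few list genes repeated in another comparison) were chosen after their values were seen, as were the RE1 search, base composition, RPKM and the chromosome summaries. Some genes that the rule names are not reported here. Alternatives were DESeq2 1.42.0, voom (limma 3.58.1), RLE scaling, other count filters, only the 6 libraries compared, a replicate block, C4-2 replicate 1 thinned to 20.1% of its counts, and each library left out.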

Additional observations from a re-analysis of the deposited data

How the results depend on the processing

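Over 17 alternatives, SYT4, ONECUT2, SYP and NSG1 stayed higher in MR49F than in LNCaP, with log2 fold changes of 2.5 to 2.56, 0.66 to 0.81, 0.85 to 1.12 and 1.39 to 1.92, and none of the 6 tested genes was called lower there. ENO2 in C4-2 against LNCaP ranged from -2.05 to -1.82. The REST call in that comparison was lost under 6 alternatives: 1 gene in place of 2 was lower with DESeq2 (REST -0.29, adjusted p = 0.0505), with only the 6 libraries compared (-0.29, adjusted p = 0.0575), and in the range of 1 to 2 when each library was left out, where REST ranged up to -0.13. The number higher in MR49F than in C4-2 was 3 to 5 when each library was left out, and 5 without a count filter, through CHGA. Values that turned sign were not called: REST in MR49F against LNCaP (-0.05 without MR49F replicate 3, and -0.05 to 0.14 over all libraries left out) and ONECUT2 in MR49F against C4-2 (-0.01 without MR49F replicate 1 and -0.18 without C4-2 replicate 1, and -0.18 to 0.21 over all). The cause was not tested. By Spearman's rho, the likeness of ZNF516 to SYT4 was 0.8954, and those of DPM3 to SYP and of HOOK1 to REST were both 0.7833. Depth limits UCHL1, CHGA and SRRM4, which had few or no counts in most libraries.

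Replicate numbers did not pair the libraries: deviations of same-numbered libraries correlated at -0.083 to 0.056, and 0 of 9 pairs were over 0.1. With the replicate number as a block, 3646 genes were higher and 3469 lower in MR49F against LNCaP, 4552 and 4709 in MR49F against C4-2, and 3907 and 3553 in C4-2 against LNCaP, beside 3719, 3516, 4606, 4786, 4033 and 3625 without it. The calls among the 9 genes were the same in number with the block (4 and 0, 2 and 2, 4 and 0). No alternative was run for C4-2R against C4-2.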
